A study of Anolis sagrei with 10 samples.

Results

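The genes described here are the ephrins and Eph receptors, the semaphorins with their plexin and neuropilin receptors, the Slit proteins with their Robo receptors, and the netrins with DCC, neogenin and UNC5. They were chosen by gene symbol and not by their values, though earlier results of these data were known at the time. Of the 12476 genes with a symbol in the authors' deposited table, 57 belonged to these families, and all 57 were kept because each had at least 10 counts in at least 5 libraries. Every one of the 57 had at least 16 counts in every library, the lowest being UNC5D, so no gene was kept through a single limb. Of the 57 genes, 27 encode ligands and 30 encode receptors.

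RNA was sequenced from forelimb buds (5 libraries) and hindlimb buds (5 libraries) of wild type Anolis sagrei embryos, a lizard known as the brown anole, at stage 7. Replicate numbers 1 to 5 occur in both limbs, and the limbs were compared within each number. The extraction protocol speaks of pairs of buds but does not tie a pair to a number. The labels do not say how many embryos a library holds or whether replicates are separate embryos. Where limbs are compared within a number, p-values measure the spread of the limb difference between these replicate numbers, not between embryos. Total counts ran from 42151036 to 54998469 in forelimb libraries and from 41808148 to 47180041 in hindlimb libraries.

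These families carry signals that tell growing axons, vessels and migrating cells where to go or stop. Ephrins sit on the cell surface and signal through Eph receptor tyrosine kinases on the neighbouring cell, often with signalling in both directions. Semaphorins act through plexins, and the secreted class 3 semaphorins mostly need a neuropilin as co-receptor. Slit proteins are secreted repellents read by Robo receptors, and netrins attract through DCC and neogenin or repel through UNC5 receptors. In the limb buds of chick and mouse these cues steer motor and sensory axons, muscle precursors and blood vessels.

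The limb labels were first checked on genes that mark limb type. TBX5, the forelimb T-box factor, averaged 479 ± 67.3 CPM over forelimb libraries and 1.82 ± 0.700 CPM over hindlimb libraries (SD, n = 5 each), CPM being counts scaled to library size with TMM factors. TBX4 and PITX1, the hindlimb factors, were at 0.267 and 0.311 CPM in forelimb and at 40.9 and 36.2 CPM in hindlimb, so every library matched its label.

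Of the 57 guidance genes, 7 passed an adjusted p of 0.05 in the limb comparison, where 1.32% of all 15727 genes tested passed it (edgeR quasi-likelihood test with the replicate number as a block, Benjamini-Hochberg over all genes). The 4 genes SLIT3, SEMA3G, PLXNB1 and EPHA4 were higher in forelimb, as were 0.699% of all genes, and the 3 genes SLIT2, SEMA3E and EPHA7 were higher in hindlimb, as were 0.617% of all genes. The differences were modest: log2 fold changes, forelimb over hindlimb, ran from -0.71 for SLIT2 to 0.71 for SEMA3G over all 57 genes, and none reached a 2-fold change. An unadjusted p under 0.05 was given to 29 of 57, where 13.7% of all genes had one. Of the 29, 20 were higher in forelimb (7.44% of all genes) and 9 in hindlimb (6.29%). The guidance genes had a median of 52.1 CPM (mean of all libraries) and all genes tested a median of 16.9 CPM, and the part of read number in these shares was not tested. When the replicate block was left out, edgeR called 0 of the 57 genes, with 11 at an unadjusted p under 0.05, and 0.197% of all genes passed the adjusted threshold. DESeq2 with the block called 14 of 57, where it called 3.78% of all genes. Beside the family counts below stand the same shares of all genes, 1.32% called by edgeR and 3.78% by DESeq2. At an unadjusted p under 0.05 the shares of all genes were 13.7% in edgeR and 14.2% in DESeq2.

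**Figure D1:**
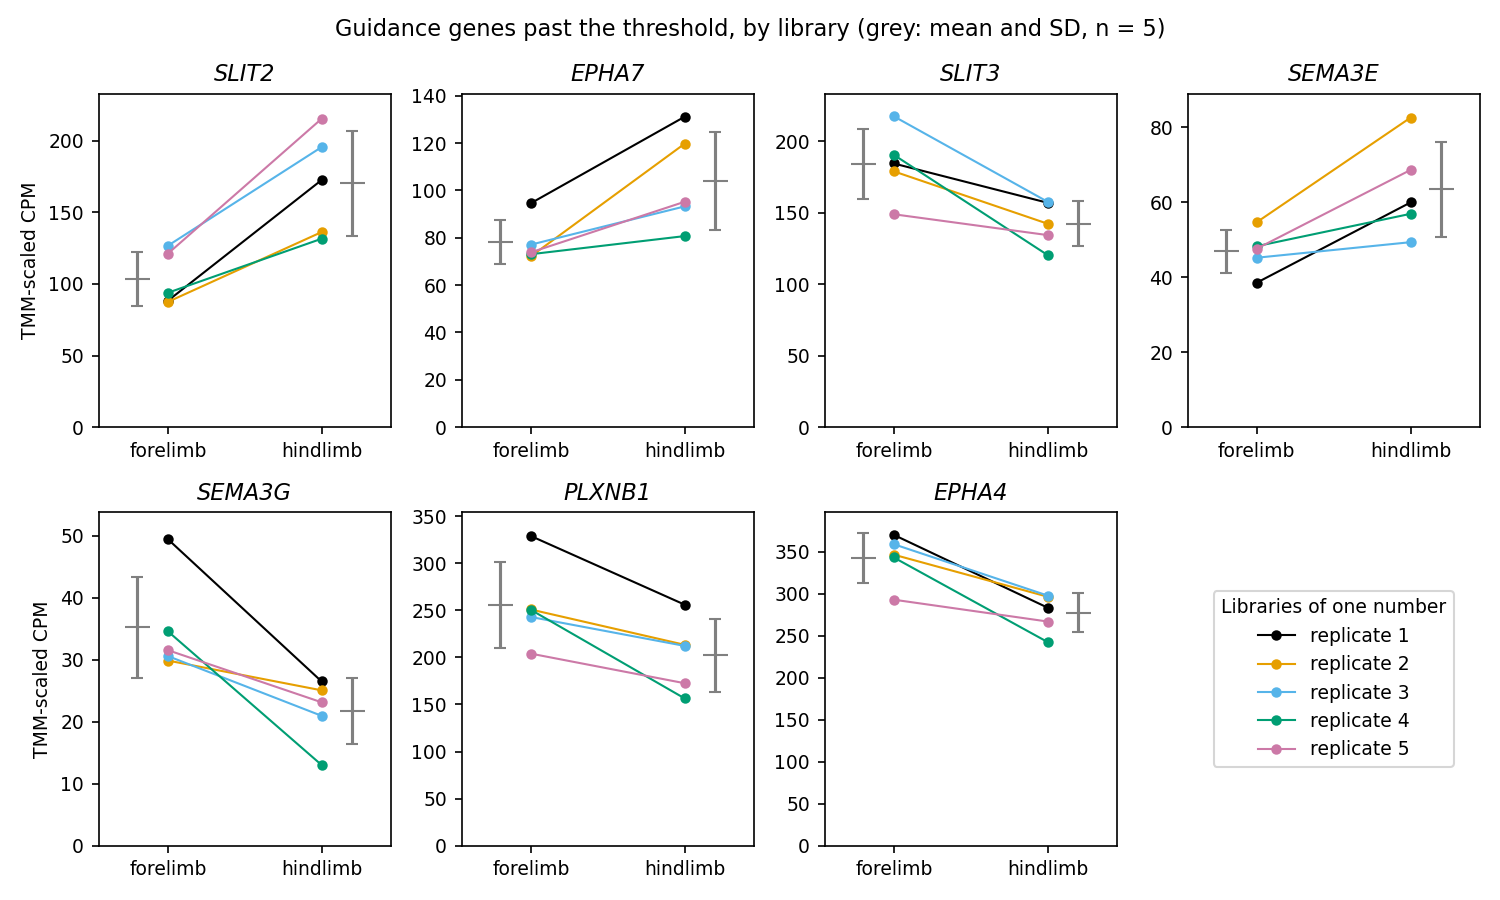
TMM-scaled CPM of the 7 called guidance genes in each library, forelimb on the left and hindlimb on the right, with a line joining the libraries of a replicate number and grey bars giving mean and SD of 5 libraries. All 5 lines slope upward to hindlimb for SLIT2, EPHA7 and SEMA3E and downward for SLIT3, SEMA3G, PLXNB1 and EPHA4.

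The Slit genes gave the clearest difference, and in opposite directions. SLIT2 (ENSACAG00000001304), a secreted repellent of axons and migrating cells, was at 88.3, 87.5, 127, 93.8 and 121 CPM in forelimb replicates 1 to 5, against 173, 136, 196, 132 and 215 CPM in hindlimb replicates 1 to 5. The highest forelimb library lay below the lowest hindlimb library, and hindlimb was higher in 5 of 5 pairs. SLIT2 averaged 103 CPM ± 18.9 in forelimb and 170 CPM ± 36.5 in hindlimb (SD, n = 5 each). Its fitted log2 fold change came to -0.71 ± 0.08 (SE) at an adjusted p of 0.000286 by edgeR. It stayed called in each of the 5 fits that left out a pair (adjusted p 0.000320 to 0.00479) and in 11 of the 12 alternative fits, the exception being the fit without the block (adjusted p 0.167). In the authors' deposited table SLIT2 was listed with a log2 fold change of -0.53 ± 0.13 (adjusted p 0.00951). It was the only guidance gene under 0.05 there, where 93 of the 14978 genes with an adjusted p were. Before adjustment 13 of the 57 were under 0.05 in the authors' table, and the share of all genes there was not counted. The edgeR fit gave 29 of the 57 with the block and 11 without it. The authors' fold changes come from their own fit, in which SEMA3G had 0.47 against 0.71 here, so the sizes need not match.

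SLIT3 (ENSACAG00000027521), its paralogue, was at 184, 179, 217, 190 and 149 CPM in forelimb replicates 1 to 5, against 157, 142, 158, 120 and 134 CPM in the hindlimb replicates. Forelimb was higher in 5 of 5 pairs, although forelimb replicate 5 lay within the hindlimb range. The fitted log2 fold change came to 0.37 ± 0.08 at an adjusted p of 0.0352 by edgeR. The call was lost without replicate numbers 2 (adjusted p 0.152), 3 (0.210) or 4 (0.119). SLIT1, which is best known from the nervous system, was at 52.3 to 86.9 CPM in forelimb and 34.1 to 67.6 CPM in hindlimb, and its log2 fold change was 0.24 ± 0.09, which did not pass (edgeR adjusted p 0.266).

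None of the 4 Robo receptor genes was called by edgeR or by DESeq2, with 1 at an unadjusted p under 0.05 in each. ROBO1 was at 442 to 580 CPM in forelimb and 322 to 523 CPM in hindlimb, and ROBO2 at 77.3 to 127 CPM in forelimb and 88.1 to 137 CPM in hindlimb, so for both the limbs overlapped. Their log2 fold changes had opposite signs, 0.21 ± 0.08 for ROBO1 (edgeR adjusted p 0.276) and -0.13 ± 0.08 for ROBO2 (0.499). ROBO3, a divergent member known from commissural axons in mouse, had 0.08 ± 0.12. ROBO4, an endothelial receptor, had 0.38 ± 0.25 (adjusted p 0.550), and its level spread widely: 15.7, 9.51, 13.5, 9.78 and 7.41 CPM in forelimb replicates 1 to 5 and 19.9, 9.38, 8.72, 3.05 and 7.11 CPM in hindlimb replicates 1 to 5. Without replicate number 4 its log2 fold change was 0.09, and without number 1 it was 0.57. The summed level of the 7 endothelial markers with an identifier was lowest in the same library, hindlimb replicate 4 (59.6 CPM, against 81.9 to 138 CPM in forelimb libraries and 85.7 to 128 CPM in the other hindlimb libraries). In bulk RNA, fewer cells of a type and less RNA per cell cannot be told apart.

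The Eph A receptors also held a called gene in each direction. EPHA7 (ENSACAG00000003318), a receptor for the A-type ephrins, was at 94.6, 72.2, 77.1, 73.1 and 73.8 CPM in forelimb replicates 1 to 5, against 131, 120, 93.2, 80.7 and 95.2 CPM in hindlimb replicates 1 to 5. Hindlimb was higher in 5 of 5 pairs. The single forelimb library within the hindlimb range was replicate 1, and hindlimb replicate 1 was also the highest of its limb. The fitted log2 fold change came to -0.40 ± 0.08 at an adjusted p of 0.0347 by edgeR, and the call was lost without replicate numbers 2 (0.189), 3 (0.132) or 5 (0.0579).

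EPHA4 (ENSACAG00000005061), a receptor for A-type and B-type ephrins that guides motor axons into the dorsal limb in chick and mouse, was at 370, 347, 359, 343 and 293 CPM in forelimb replicates 1 to 5, against 284, 297, 298, 243 and 267 CPM in hindlimb replicates 1 to 5. Only forelimb replicate 5 fell within the hindlimb range. The fitted log2 fold change came to 0.30 ± 0.07 at an adjusted p of 0.0436 by edgeR. The call was lost without replicate numbers 1 (0.0737), 2 (0.158), 3 (0.202) or 4 (0.131).

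EPHA3, a close relative of EPHA4 and EPHA5 that also binds A-type ephrins, was at 85.1, 90.4, 104, 103 and 88.0 CPM in forelimb and 68.6, 83.2, 75.9, 64.6 and 82.6 CPM in hindlimb. Every forelimb library lay above every hindlimb library, and the fitted log2 fold change was 0.33 ± 0.09. The gene missed the threshold in edgeR (adjusted p 0.0888) and limma voom (0.0713) and passed it in DESeq2 (0.0260). Groups without overlap were found in 4 of 57 guidance genes (EPHA3, SEMA3G, SEMA5A and SLIT2), where 1.18% of all genes tested had them. Forelimb lay above in 3 of these (0.617% of all genes) and hindlimb in 1 (0.566%). EPHA5 had a log2 fold change of -0.38 ± 0.17 (adjusted p 0.357), EPHA8 -0.23 ± 0.30 (0.802) and EPHA1 0.22 ± 0.15 (0.565). The 6 Eph A receptor genes were therefore split, 3 with a positive and 3 with a negative fold change.

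The 4 Eph B receptor genes, whose usual ligands are the transmembrane B-type ephrins, all had fold changes at or above 0. By edgeR 0 were called, with 1 at an unadjusted p under 0.05 (EPHB3), which DESeq2 called. EPHB3 had the largest, with 154, 141, 159, 125 and 149 CPM in forelimb and 158, 132, 118, 82.3 and 110 CPM in hindlimb, which gave a fitted log2 fold change of 0.30 ± 0.09 (edgeR adjusted p 0.135, and 0.0286 without replicate number 1). EPHB2 and EPHB1 had 0.16 ± 0.11 and 0.14 ± 0.08. EPHB6, a receptor without kinase activity, had 0.00 ± 0.08, with 39.9 to 62.3 CPM in forelimb and 44.7 to 60.0 CPM in hindlimb.

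Of the 5 ephrin genes 0 were called by edgeR or DESeq2, with 1 at an unadjusted p under 0.05 in edgeR (EFNB2) and 0 in DESeq2. EFNA5, an A-type ephrin that repels axons, was at 23.1 to 27.3 CPM in forelimb and 21.4 to 29.7 CPM in hindlimb, and its log2 fold change was -0.08 ± 0.09. EFNA2 was higher in forelimb in 5 of 5 pairs but had few counts, with 3.01 to 5.43 CPM in forelimb and 1.98 to 4.0 CPM in hindlimb. Its log2 fold change of 0.45 ± 0.22 did not pass (edgeR adjusted p 0.387). EFNB2, which marks arteries and also acts in mesenchyme, had -0.16 ± 0.07 (adjusted p 0.363), EFNB1 had 0.25 ± 0.17 (0.568) and EFNB3 had 0.00 ± 0.10. EFNB1 was higher in forelimb in only 2 of 5 pairs, with 38.4 CPM in forelimb replicate 5 against 18.4 CPM in hindlimb replicate 5, and without replicate number 5 its log2 fold change was 0.05.

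**Figure D2:**
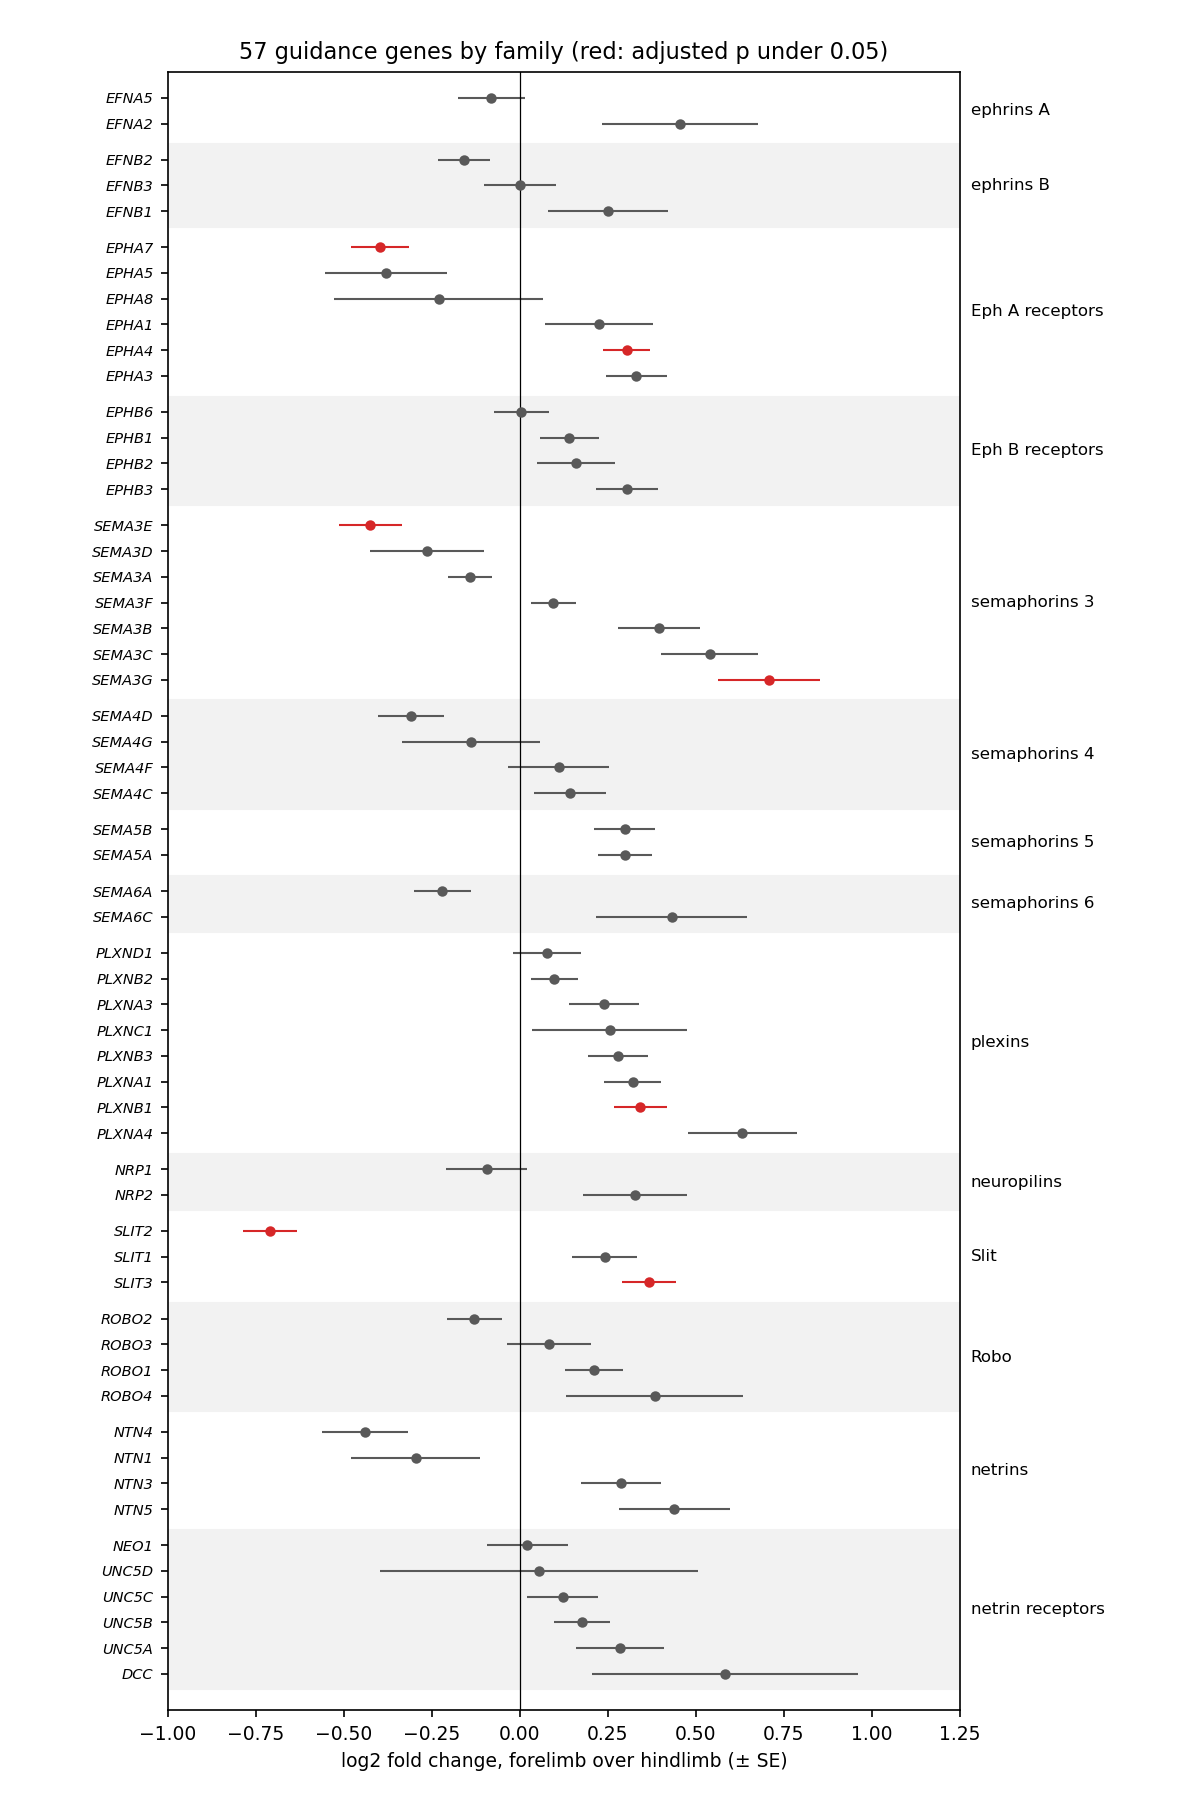
Fitted log2 fold change, forelimb over hindlimb, with SE bars, for each of the 57 guidance genes grouped by family, with the 7 called genes in red. The Slit, Eph A receptor and class 3 semaphorin families each hold a called gene on either side of 0, and all 8 plexin genes lie above 0.

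Of the 15 semaphorin genes, edgeR called 2, where it called 1.32% of all genes, and both were in the secreted class 3. SEMA3G (ENSACAG00000012079), a ligand of neuropilin 2 that is known from endothelium in mouse, was at 49.4, 29.9, 30.6, 34.6 and 31.5 CPM in forelimb replicates 1 to 5, against 26.5, 25.1, 21.0, 13.0 and 23.1 CPM in hindlimb replicates 1 to 5. The limbs did not overlap. The gap was widest in pair 4, where the log2 ratio was 1.41, and in pair 1, where it was 0.90, while pair 2 had 0.25. The fitted log2 fold change came to 0.71 ± 0.15 at an adjusted p of 0.0389 by edgeR, and the call was lost in each of the 5 fits that left out a pair (0.0516 to 0.139).

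SEMA3E (ENSACAG00000016165), the class 3 semaphorin that signals through PLXND1 without a neuropilin and repels endothelial cells in mouse, went the other way. It was at 38.6, 54.7, 45.2, 48.3 and 47.6 CPM in forelimb replicates 1 to 5, against 60.0, 82.6, 49.4, 56.9 and 68.6 CPM in hindlimb replicates 1 to 5. Hindlimb was higher in 5 of 5 pairs, by least in pair 3, and the ranges overlapped. The fitted log2 fold change came to -0.42 ± 0.09 at an adjusted p of 0.0355 by edgeR, and this call too was lost in each of the 5 fits that left out a pair (0.0532 to 0.203). Its receptor PLXND1 had 0.08 ± 0.10 (adjusted p 0.797), with 78.9 to 144 CPM in forelimb and 74.2 to 145 CPM in hindlimb.

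The other class 3 genes had fold changes of both signs, and edgeR called none of them, with 3 at an unadjusted p under 0.05, while DESeq2 called SEMA3C. SEMA3C, which acts in heart outflow and neural crest in mouse, was higher in forelimb in 5 of 5 pairs with 0.54 ± 0.14 on the log2 scale (edgeR adjusted p 0.0954), and SEMA3B likewise with 0.40 ± 0.12 (0.139). SEMA3A, the classic repellent of sensory and motor axons in the limb, was at 157 to 196 CPM in forelimb and 177 to 215 CPM in hindlimb. It was higher in hindlimb in 5 of 5 pairs, with a log2 fold change of -0.14 ± 0.06 (edgeR adjusted p 0.337). SEMA3D had -0.27 ± 0.16 and SEMA3F 0.09 ± 0.06. SEMA3D was higher in hindlimb in only 3 of 5 pairs, with a log2 ratio of -1.10 in pair 1 and -0.21 to 0.03 in the others. In the RefSeq annotation of this species (assembly rAnoSag1.mat), SEMA3D, SEMA3A and SEMA3E follow each other with 0 protein-coding genes between them, and these 3 are the class 3 genes with negative fold changes. Of these 3, SEMA3E alone was called by edgeR. ROBO1 and ROBO2 also had 0 protein-coding genes between them, and their log2 fold changes had opposite signs (0.21 and -0.13). ROBO4 and ROBO3 had 0 between them too, with 0.38 and 0.08. The order of these genes was looked up after the values were seen.

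Of the 8 semaphorins of classes 4 to 6, which are membrane-bound, edgeR called 0, with 4 at an unadjusted p under 0.05, and DESeq2 called SEMA5A. SEMA5A, which carries thrombospondin repeats, was at 72.6, 61.3, 57.3, 67.6 and 74.2 CPM in forelimb and at 55.8, 56.1, 50.2, 54.0 and 53.6 CPM in hindlimb. Its limbs did not overlap, with a fitted log2 fold change of 0.30 ± 0.08 (edgeR adjusted p 0.0772). SEMA5B had 0.30 ± 0.09 (0.134), also higher in forelimb in 5 of 5 pairs. SEMA4D, the ligand of PLXNB1, was at 32.4 to 49.1 CPM in forelimb and 48.8 to 55.4 CPM in hindlimb, higher in hindlimb in 5 of 5 pairs with -0.31 ± 0.09 (0.152). SEMA4C, SEMA4F and SEMA4G had log2 fold changes of 0.14 ± 0.10, 0.11 ± 0.14 and -0.14 ± 0.20, SEMA6A had -0.22 ± 0.08 (0.247) and SEMA6C 0.43 ± 0.22 (0.403). SEMA6C had 0.22 without replicate number 4, and SEMA4D passed without number 1 (edgeR adjusted p 0.0438).

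All 8 plexin genes had a positive fold change, with a median of 0.27 on the log2 scale. Of all genes tested 50.2% had a positive and 49.8% a negative one, with a median of 0.00. PLXNC1 and PLXND1 were higher in forelimb in only 2 of 5 pairs. The median log2 ratio of the plexin genes was 0.58 in pair 4 and 0.16 to 0.22 in the other pairs. Of the 8, edgeR called 1 (PLXNB1), limma voom called 2 (PLXNA4 and PLXNB1) and DESeq2 called 3 (PLXNA1, PLXNA4 and PLXNB1), each with the block. Of all genes, these fits called 1.32%, 1.79% and 3.78%. PLXNB1 (ENSACAG00000010475), the receptor for SEMA4D that acts on RhoA and R-Ras, was at 329, 251, 243, 251 and 204 CPM in forelimb replicates 1 to 5, against 256, 213, 212, 156 and 173 CPM in hindlimb replicates 1 to 5. The ranges overlapped, replicate number 1 was the highest in both limbs, and forelimb was higher in 5 of 5 pairs. The fitted log2 fold change came to 0.34 ± 0.08 at an adjusted p of 0.0436 by edgeR, and the call was lost without replicate numbers 1 (0.0589), 2 (0.145), 3 (0.138) or 4 (0.107).

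PLXNA4, which in mouse partners neuropilins as a receptor for class 3 semaphorins, had the largest fold change of the plexins. It was at 36.6, 23.9, 25.1, 21.1 and 21.3 CPM in forelimb and at 25.9, 19.3, 17.2, 7.50 and 16.5 CPM in hindlimb, so hindlimb replicate 4 stood well below the rest. Its log2 fold change of 0.63 ± 0.15 did not pass in edgeR (adjusted p 0.0724) but passed in limma voom (0.0472) and DESeq2 (0.00318). PLXNA1 and PLXNB3 were also higher in forelimb in 5 of 5 pairs, with 0.32 ± 0.08 (edgeR adjusted p 0.0822) and 0.28 ± 0.09 (0.160), and DESeq2 gave PLXNA1 an adjusted p of 0.0194. PLXNA3 had 0.24 ± 0.10, PLXNC1 0.25 ± 0.22 and PLXNB2 0.10 ± 0.07. Over the 8 plexin genes together, forelimb libraries summed to 914 to 1318 CPM and hindlimb libraries to 728 to 1157 CPM.

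The neuropilins, co-receptors for class 3 semaphorins and for VEGF, were not called by edgeR or DESeq2, with 0 at an unadjusted p under 0.05 in edgeR and 1 in DESeq2. NRP1 was at 342, 313, 541, 256 and 227 CPM in forelimb and at 406, 365, 471, 203 and 330 CPM in hindlimb, so it varied far more between replicate numbers than between limbs, with a log2 fold change of -0.10 ± 0.11. Replicate number 3 was the highest in both limbs. NRP2 had 0.33 ± 0.15 (edgeR adjusted p 0.384), with 76.9 CPM in hindlimb replicate 4 and 126 to 198 CPM in the other hindlimb libraries, against 126 to 220 CPM in forelimb libraries. Without replicate number 4 the NRP2 log2 fold change was 0.15.

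Of the 4 netrin genes and 6 netrin receptor genes edgeR called 0, with 5 at an unadjusted p under 0.05, and DESeq2 called NTN4. NTN4, a laminin-related netrin of basement membranes, was at 10.4, 9.58, 11.8, 11.5 and 9.46 CPM in forelimb and at 14.3, 11.5, 18.5, 17.2 and 11.2 CPM in hindlimb. It was higher in hindlimb in 5 of 5 pairs, with a fitted log2 fold change of -0.44 ± 0.12 (edgeR adjusted p 0.113). NTN5 and NTN3 were higher in forelimb in 5 of 5 pairs, with 0.44 ± 0.16 (0.226) and 0.29 ± 0.11 (0.278). NTN1, the main axon attractant of the family, was at 4.88 to 7.96 CPM in forelimb and 5.72 to 11.3 CPM in hindlimb, with -0.30 ± 0.18 (0.510).

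Of the netrin receptors, UNC5A and UNC5B, which mediate repulsion, were higher in forelimb in 5 of 5 pairs, with log2 fold changes of 0.28 ± 0.12 (edgeR adjusted p 0.333) and 0.18 ± 0.08 (0.341). UNC5C had 0.12 ± 0.10. NEO1 (neogenin), the receptor for repulsive guidance molecules as well as netrins, was at 407 to 554 CPM in forelimb and 294 to 583 CPM in hindlimb, with 0.02 ± 0.12. DCC and UNC5D had few counts in both limbs, and their errors were wide. DCC was at 0.747 to 4.36 CPM in forelimb and 0.565 to 2.20 CPM in hindlimb, with 0.58 ± 0.38 (0.535), or 0.30 without replicate number 5. UNC5D was at 0.506 to 2.13 CPM in forelimb and 0.411 to 1.61 CPM in hindlimb, with 0.05 ± 0.45.

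Across families, receptors had a positive fold change in 25 of 30 genes and ligands in 16 of 27. Among the ligands 2 called genes were higher in forelimb (0.699% of all genes) and 2 in hindlimb (0.617%), and among the receptors 2 and 1. The direction was the same in all 5 pairs for 23 of 57 genes, where 14.7% of all genes tested had a uniform direction. Forelimb was the higher limb in 17 of them (7.75% of all genes) and hindlimb in 6 (6.98%). Any difference within a pair counted, however small. The log2 ratio was -0.005 in pair 1 of SEMA4D, -0.007 in pair 1 of SEMA3A, 0.006 in pair 3 of NTN3 and 0.017 in pair 2 of EFNA2. Known partners did not always lean the same way: PLXNB1 was higher in forelimb while its ligand SEMA4D had a negative fold change that missed the threshold, and SLIT2 and SLIT3 opposed each other while ROBO1 and ROBO2 did not pass.

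**Figure D3:**
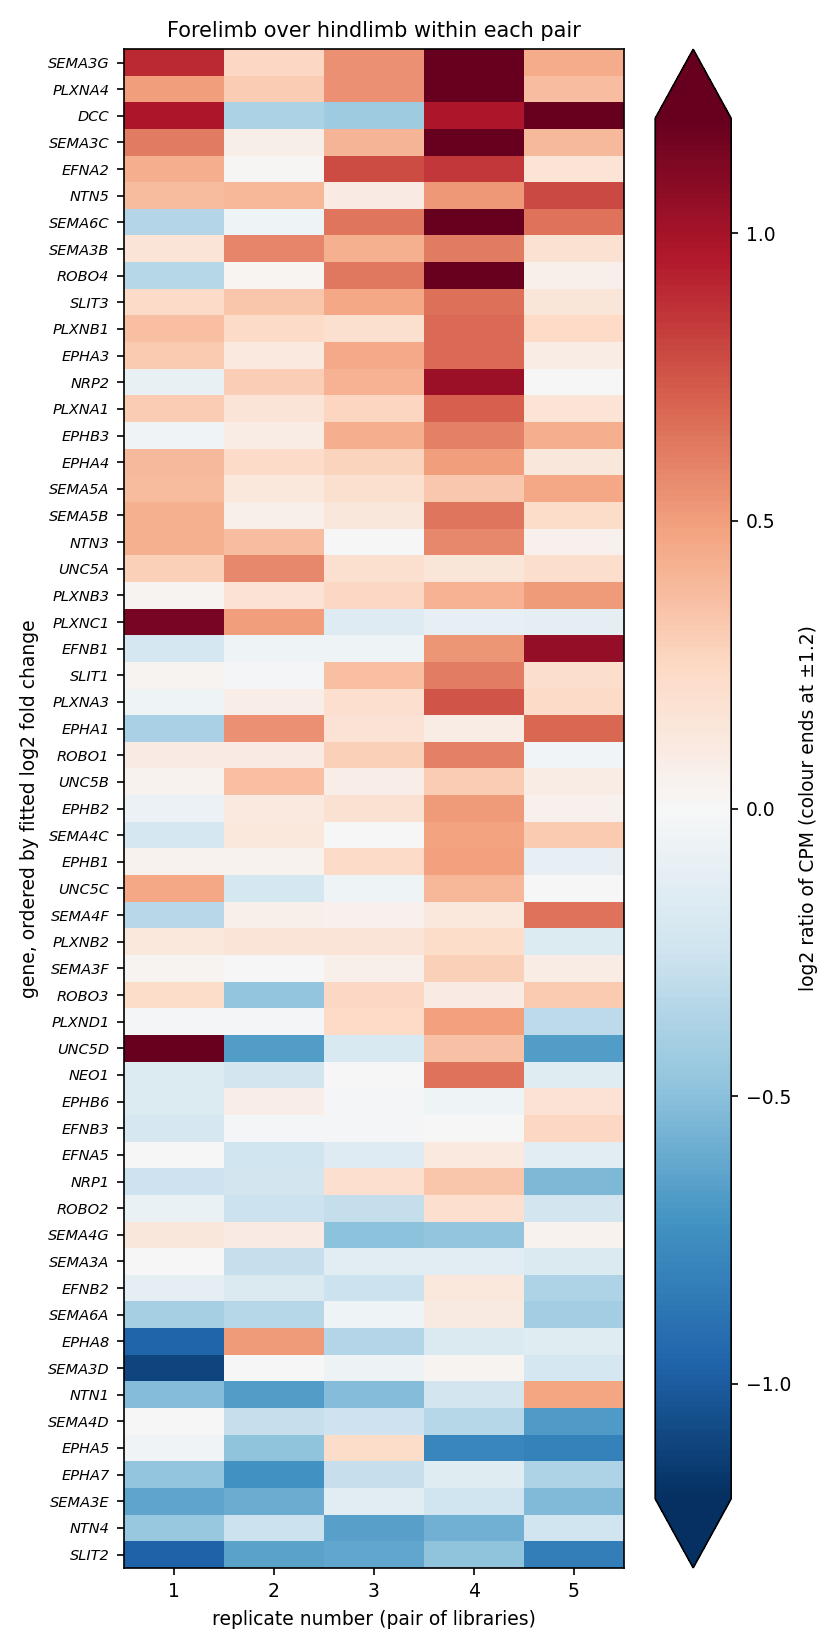
Log2 ratio of forelimb over hindlimb CPM within each replicate number (columns) for the 57 guidance genes (rows, ordered by fitted fold change), red where forelimb was higher and blue where hindlimb was higher. The column of pair 4 is the reddest, with 44 of 57 genes higher in forelimb, and SLIT2 at the bottom is blue in every column.

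The lean toward forelimb was uneven between pairs. Forelimb was higher in 29, 33, 35, 44 and 35 of the 57 genes in pairs 1 to 5, and the median log2 ratio was 0.00, 0.06, 0.14, 0.40 and 0.09. Over all genes tested these medians lay between -0.01 and 0.01. For the 30 receptor genes pair 4 gave a median of 0.45, against 0.04 to 0.20 in the other pairs. Hindlimb replicate 4 held the lowest level of all 10 libraries for 31 of the 57 genes, where it did so for 21.8% of all genes tested. Without replicate number 4, 2 guidance genes were called (SLIT2 and EPHA7) where 0.618% of all genes were, 0 of the 2 were higher in forelimb, and the median log2 fold change over the 57 genes was 0.09 in place of 0.16.

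**Figure D4:**
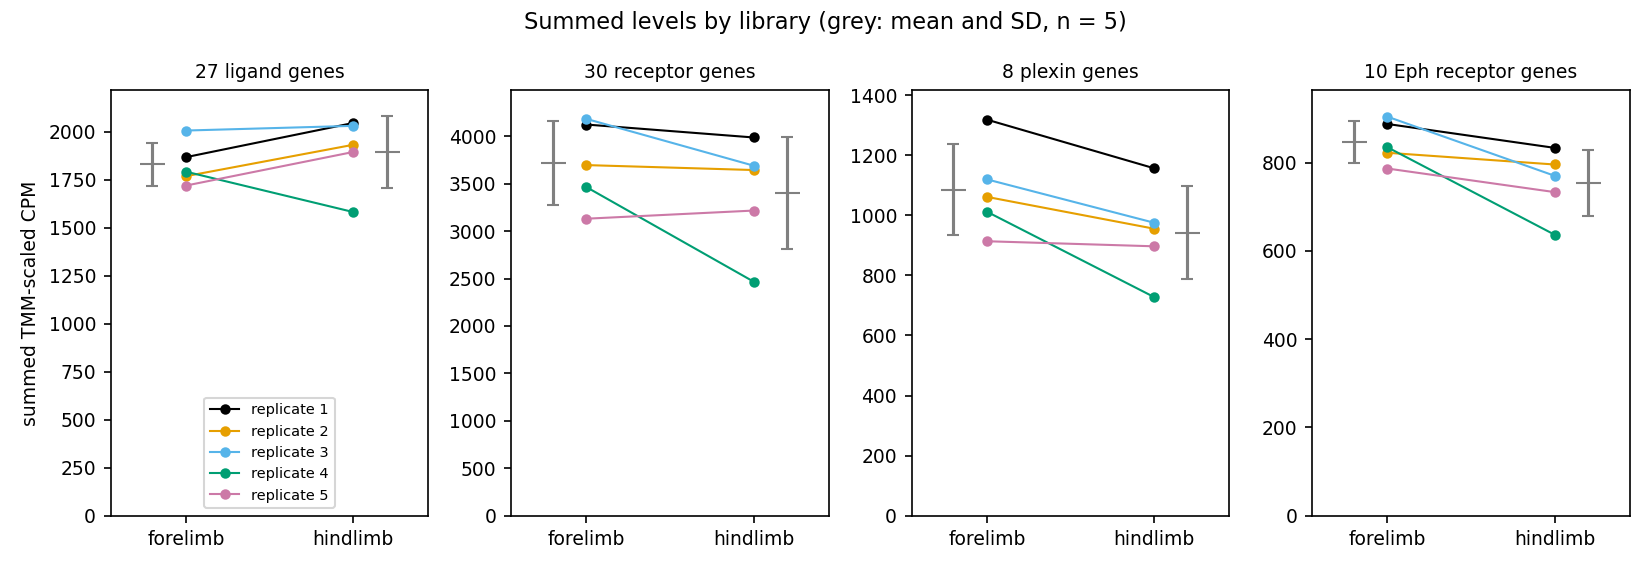
Summed TMM-scaled CPM of the ligand, receptor, plexin and Eph receptor genes in each library, forelimb on the left and hindlimb on the right, with a line joining libraries of a replicate number and grey bars giving mean and SD of 5 libraries. Receptor sums ran from 3130 to 4183 CPM in forelimb and from 2467 (replicate 4) to 3987 CPM in hindlimb. Eph receptor sums were higher in forelimb in every pair, and EPHA4 held the largest part of them.

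Summed over all 57 genes, guidance transcripts made up 5990, 5463, 6188, 5255 and 4849 CPM in forelimb replicates 1 to 5, against 6032, 5575, 5720, 4049 and 5110 CPM in hindlimb replicates 1 to 5. The sum was higher in forelimb in 2 of 5 pairs. The 10 Eph receptor genes summed to 787 to 905 CPM in forelimb and 637 to 834 CPM in hindlimb. That sum was higher in forelimb in 5 of 5 pairs. EPHA4, itself called, held the largest part, at a mean of 342 of 847 CPM in forelimb and 278 of 754 CPM in hindlimb. The 5 ephrin genes summed to 232 to 307 CPM in forelimb and 247 to 334 CPM in hindlimb. This sum was higher in forelimb in 1 of 5 pairs. EFNB2 held most of it, at a mean of 192 of 271 CPM in forelimb and 214 of 289 CPM in hindlimb. Neither sum therefore stands for its family as a whole.

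The replicate number took the larger share of the variation in a typical guidance gene. On log2 CPM, it accounted for a median of 58.6% of the sum of squares and the limb for 16.9%. The medians over all genes tested were 65.8% and 5.54%. There are more replicate numbers than limbs, so noise alone gives the replicate number a larger share. These shares are therefore not comparable with each other, only with those of all genes. SLIT2 (65.6%), SEMA5A (65.4%), EPHA4 (63.9%), EPHA3 (60.7%), SLIT3 (56.4%) and SEMA3G (55.1%) were the guidance genes in which limb held the largest share. ROBO3, EPHB6, NRP1 and SEMA3F were at the other end, with 84.5% to 90.5% of variance between replicate numbers. The level of a guidance gene, averaged over limbs as a deviation from the limb means, was highest in replicate number 1 for 31 of 57 genes and lowest in number 4 for 27. These counts were not made over all genes, so they cannot be read as particular to guidance genes.

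Genes that act beside these receptors were followed through a list of 53 signalling partners, of which 47 had an identifier and were tested. Of these, edgeR called 2 (1.32% of all genes), both higher in forelimb (0.699% of all genes), and the median log2 fold change was 0.07, with 29 positive and 18 negative. GPC1, a glypican that binds Slit, was at 158 to 217 CPM in forelimb and 99.5 to 153 CPM in hindlimb, with 0.48 ± 0.09 and an edgeR adjusted p of 0.0199. MICAL3, of the family of oxidoreductases that act downstream of plexins, was at 67.3 to 93.4 CPM in forelimb and 49.5 to 69.5 CPM in hindlimb, with 0.41 ± 0.08 (0.0196). Both calls were lost without replicate numbers 2, 3 or 4. On the semaphorin and plexin side 1 of 15 partners was called and 10 had a positive fold change, and on the Slit and Robo side these were 1 and 10 of 12. On the Eph side 0 of 11 and on the netrin side 0 of 9 were called. An unadjusted p under 0.05 (edgeR) was given to 16 of the 47 partners, where 13.7% of all genes had one. These were 5 on the semaphorin side, 6 on the Slit side, 3 on the Eph side and 2 on the netrin side. Of the 16, 13 were higher in forelimb (7.44% of all genes) and 3 in hindlimb (6.29%). DESeq2 with the block called 5 partners in all, where it called 3.78% of all genes.

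Markers of other cell types that use guidance cues were read beside these results. Of 12 neuronal markers 8 had an identifier, and they summed to 23.8 to 30.5 CPM in forelimb and 28.1 to 36.5 CPM in hindlimb. Of 8 Schwann cell and neural crest markers 5 had one, and summed to 60.3 to 81.6 CPM in forelimb and 44.3 to 88.2 CPM in hindlimb. The 7 endothelial markers summed to 81.9 to 138 CPM in forelimb and 59.6 to 128 CPM in hindlimb, and the 7 muscle precursor markers to 221 to 369 CPM in forelimb and 290 to 360 CPM in hindlimb. The 8 ectodermal markers summed to 439 to 529 CPM in forelimb and 391 to 620 CPM in hindlimb, and the 5 red blood cell markers to 11.6 to 142 CPM in forelimb, with the highest in replicate 1, and 5.98 to 24.3 CPM in hindlimb. In these lists no marker was at 0 in every library. Of the 39 tested edgeR called 0, where it called 1.32% of all genes. It gave 8 of the 39 an unadjusted p under 0.05, where 13.7% of all genes had one. The limma voom fit called 1 of 39, where it called 1.79% of all genes. DESeq2 called 4 of the 38 to which it gave an adjusted p, where it called 3.78% of all genes. The DESeq2 calls were SYT1 among the neuronal markers (higher in hindlimb), SOX18 among the endothelial markers (higher in forelimb), and PAX3 (higher in forelimb) and MSC (higher in hindlimb) among the muscle precursor markers. Fold changes were positive for 6 of 7 endothelial markers (median 0.27 on the log2 scale), 8 of 8 ectodermal markers (0.08), 5 of 5 red blood cell markers (0.72), 4 of 5 Schwann cell and neural crest markers (0.12), 4 of 7 neuronal markers (0.14) and 3 of 7 muscle precursor markers (0.00). Of 8 limb mesenchyme markers 4 had an identifier, and they summed to 1086 to 1619 CPM in forelimb and 802 to 1348 CPM in hindlimb. Their fold changes were positive for 2 and negative for 2, with a median of 0.04 on the log2 scale. COL1A1, a collagen of connective tissue, was called among them (0.42 ± 0.08, edgeR adjusted p 0.0168). MSX2 had 0.27 ± 0.08, while TWIST1 and MSX1 had -0.27 ± 0.39 and -0.18 ± 0.18. Hindlimb replicate 4 was the lowest of all libraries for the mesenchyme, endothelial and Schwann cell sums and the highest for the ectodermal sum. COL1A1 made up most of the mesenchyme sum, with 549 of 802 CPM in that library. MSX2 was also lowest in hindlimb replicate 4, at 97.6 CPM. MSX1 was highest there, at 87.3 CPM, and TWIST1, at 68.1 CPM, lay within the range of the other libraries. The part of these cell types in the differences of guidance genes was not tested.

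The number of called genes moved with the settings, while none of the 29 genes followed through all 12 alternative fits turned its direction. Many of these were picked for the same direction in 5 of 5 pairs, so leaving out a pair could hardly turn them. Over all 57 genes, 41 had a positive fold change in the reported fit. This was 38 without replicate number 4 and 39 without number 5 or without the block. Besides the fits already given, edgeR called 7 of the 57 with RLE scaling (1.31% of all genes), 7 with its default filter (1.33%) and 1 with library totals alone (0.998%). It called 17 with no low-count filter (3.03%), and limma voom called 8 (1.79%). Leaving out replicate numbers 1, 2, 3 and 5 in turn gave 5, 1, 1 and 4 calls, beside 2.05%, 0.371%, 0.436% and 1.46% of all genes. Among the 7 called genes, SLIT2 alone stayed called in each fit that left out a pair.

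**Figure D5:**
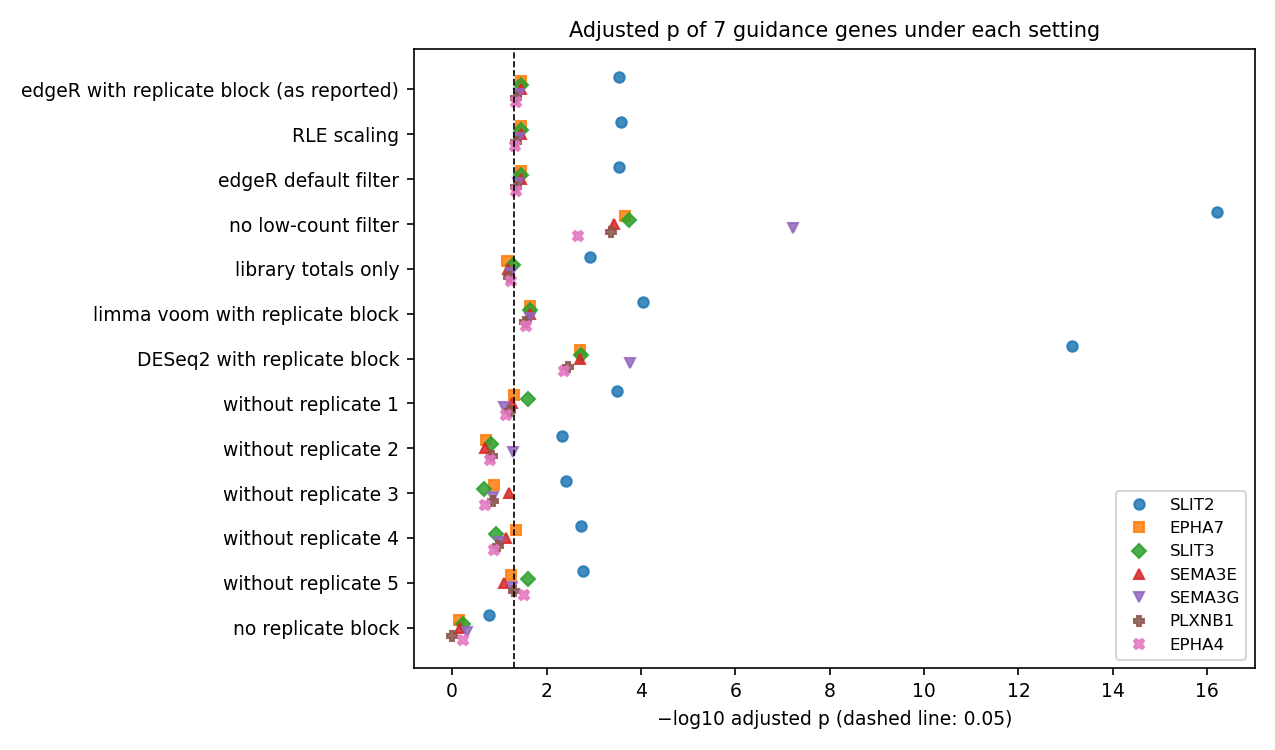
Adjusted p of the 7 called guidance genes, as −log10, under the reported fit and each of the 12 alternative fits, with the dashed line at 0.05. SLIT2 lies right of the line in every fit except the fit without the replicate block, and the other 6 genes cross to the left in several.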

How the data were processed

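The 10 count tables and the authors' table of the limb comparison were used. The deposited tables hold raw read counts per gene identifier, 1 library each. The tools named in the submitters' processing notes are STAR, featureCounts, FastQC and DESeq2; their versions and the genome build, annotation, strand setting and handling of shared reads are not given in the sources used here, so counts of close paralogues and overlapping genes are uncertain. The authors' deposited table holds a signal value (the mean normalised count over all libraries), the log2 fold change, 2 score columns (its standard error and test statistic) and the p-value before and after adjustment, per the file headers. Its symbols were the only ones used; 52 of the 57 matched a RefSeq symbol, used for gene order only.

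In R 4.3.3, edgeR 4.0.16 (TMM, robust quasi-likelihood test, replicate number as a block) was fitted to 15727 genes with 10 or more counts in at least 5 libraries; p-values were adjusted over all of them (threshold 0.05). This paired fit follows the rule by which the genes were chosen. Each gene's limb mean was subtracted from its log2 CPM before libraries were correlated between limbs. Libraries of the same number then correlated at 0.511 to 0.754 over 9747 genes, and others at -0.406 to 0.118. The subtraction itself lowers the values of different numbers, so these are not correlations of the levels themselves. By the contrast between same and different numbers, the numbers pair the libraries. The labels do not say what a number marks, and p-values may measure technical spread. No library repeated another within sampling noise (chi-square per degree of freedom at least 41.9 within a limb). The deposited tables give no gene lengths, so levels are not compared between genes. The median CPM of guidance genes and of all genes is given as a measure of read number only. Alternatives used DESeq2 1.42.0 and limma voom 3.58.1. The procedure was tested on counts simulated from the spread fitted to these data. How well it recovers differences as small as those of the guidance genes is not reported here. Genes, lists and settings were chosen with earlier results of these data known. Genes named with full values passed the threshold, differed the same way in 5 of 5 pairs with an unadjusted p under 0.05, or had the largest change of their family; others were added to account for every gene. The log2 ratios within pairs used a prior count of 2.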

Additional observations from a re-analysis of the deposited data

Results flagged for a closer look

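In 4 of 58 sets of 5 libraries (29 named guidance genes in each limb), a library stood apart from its limb by a gap of more than 0.71 of that limb's range, which is the limit Dixon's test sets for 5 values; chance gives about 1 in 20. All 4 were forelimb replicate 1 and high. EPHA7 was at 94.6 CPM there and at most 77.1 CPM in the other forelimb libraries. NTN5 was at 11.9 CPM there and at most 7.84 CPM in the others. PLXNA4 was at 36.6 CPM there and at most 25.1 CPM in the others. SEMA3G was at 49.4 CPM there and at most 34.6 CPM in the others. The summed red blood cell markers were also highest in that library (142 CPM, against 11.6 to 14.2 CPM in the other forelimb libraries), and their part in these 4 values was not tested. Without replicate number 1, the edgeR adjusted p with the block was 0.0483 for EPHA7, 0.0798 for SEMA3G and 0.0894 for PLXNA4.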

How the results depend on the processing

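The 29 named guidance genes were refitted under 12 alternatives, which gave 348 values. None turned its direction, 292 stayed on their side of the threshold, 37 lost the call and 19 gained it. Genes picked for the same direction in 5 of 5 pairs could hardly turn when a pair was left out. RLE scaling and edgeR's default filter changed no call. Without the replicate block 0 of the 57 guidance genes were called (0 higher in forelimb, 0 in hindlimb), 31 of all genes (16 and 15) and 0 partner genes (0 in forelimb). With the pairing in place the common biological coefficient of variation was 0.195, against 0.316 without it. DESeq2 with the block called 14 guidance genes (10 higher in forelimb), 537 of all genes (303 and 234) and 5 partners (5 in forelimb). With no low-count filter these were 17 (12 and 5), 697 (409 and 288) and 6 (6 in forelimb). With library totals alone 1 guidance gene was called (0 and 1). Leaving out 1 replicate number at a time gave 1 to 5 guidance genes (0 to 3 in forelimb, 1 to 3 in hindlimb), 57 to 315 of all genes (30 to 189 in forelimb, 27 to 126 in hindlimb) and 0 to 4 partners (0 to 4 in forelimb). Guidance genes had 1 call without number 2 and 1 without number 3, and partners had 0 without numbers 2, 3 or 4. The 3 limb-type genes were called in every fit. The median log2 fold change over the guidance genes stayed between 0.09 and 0.22, and over all genes between -0.01 and 0.03. Calls beside SLIT2 lay close to the threshold. DCC and UNC5D, which had few counts, had standard errors of 0.38 and 0.45 on the log2 scale. The cause of the changes in calls was not tested.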
